A study of Mus musculus with 24 samples.

Results

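Fetal liver of mice lacking the glucagon receptor (GCGR KO, here KO) was compared with wildtype (WT) liver at the embryonic age E18.5, shortly before birth. The libraries were taken by their titles, which gave 4 KO and 4 WT libraries of the 24 in the study, and 17266 of 20144 genes with a symbol passed a filter on dim probes and were tested. The other 16 libraries hold the same genotypes after birth, at the postnatal ages P2.5 and P7.5, again 4 libraries for each. Liver RNA in Cy5 was hybridised to 2-colour arrays against a commercial pooled mouse reference RNA in Cy3, and values are given as log2 of liver over reference. The labels give genotype, age and tissue, and neither strain, sex, the deleted part of the gene nor the number of animals behind a library is given in the sources used here. The p-values therefore measure only the spread between libraries of the same group, pooled over all 24 libraries, and this spread may be technical. In bulk RNA fewer cells of a type and less RNA per cell cannot be told apart.

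Glucagon is released by the alpha cells of the pancreas and acts on hepatocytes through a receptor that couples to the stimulatory G protein Gs. The cAMP made in response activates protein kinase A, which drives glycogen breakdown and, through CREB and its CRTC coactivators, switches on genes of gluconeogenesis. The fetus is supplied with glucose through the placenta, and the liver takes over glucose production at birth, when glucagon rises. The late fetal liver also still forms blood cells, so that its RNA includes that of erythroid cells and granulocytes. Hypoxia-inducible factors bind DNA at a short core (ACGTG or GCGTG) near genes of glycolysis, of cell survival and of oxygen sensing when prolyl hydroxylases leave them intact.

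Promoter sequences are shown for 3 members of the hypoxia list, whose genes rose most often in KO, and for Pck1, a classic target gene of cAMP in the liver. They are the 250 bases before an annotated start in RefSeq's GRCm38.p6 annotation of the mouse genome, written 5′ to 3′ on the strand of the gene. Ldha has 2 annotated starts there, and the first with the marked motif in these bases is shown. Capitals mark ACGTG on either strand in the first 3 and TGACG, the shorter form of the cAMP response element, on either strand in Pck1. Bnip3, which encodes a mitophagy receptor, starts downstream of chr7:138909507-138909756 on the minus strand, and Ldha, which encodes lactate dehydrogenase A, of chr7:46845554-46845803 on the plus strand. Egln1, which encodes the oxygen sensor prolyl hydroxylase, starts downstream of chr8:124949255-124949504 on the minus strand. Pck1, which encodes phosphoenolpyruvate carboxykinase, starts downstream of chr2:173152823-173153072 on the plus strand.
Bnip3: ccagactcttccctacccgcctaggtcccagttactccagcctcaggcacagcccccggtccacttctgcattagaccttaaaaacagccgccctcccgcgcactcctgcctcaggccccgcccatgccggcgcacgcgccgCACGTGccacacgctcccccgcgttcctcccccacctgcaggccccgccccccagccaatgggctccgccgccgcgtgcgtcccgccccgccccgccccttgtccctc
Ldha: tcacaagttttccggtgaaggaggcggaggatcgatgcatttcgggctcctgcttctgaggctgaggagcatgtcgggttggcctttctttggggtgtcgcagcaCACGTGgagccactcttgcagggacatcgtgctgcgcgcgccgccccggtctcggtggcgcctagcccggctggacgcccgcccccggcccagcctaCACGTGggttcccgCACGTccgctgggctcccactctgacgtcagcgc
Egln1: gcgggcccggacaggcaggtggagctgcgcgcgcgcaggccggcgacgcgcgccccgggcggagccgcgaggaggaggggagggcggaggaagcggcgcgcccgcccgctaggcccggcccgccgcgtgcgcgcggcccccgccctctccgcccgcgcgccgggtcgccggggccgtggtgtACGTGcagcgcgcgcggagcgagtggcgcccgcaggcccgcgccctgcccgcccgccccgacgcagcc
Pck1: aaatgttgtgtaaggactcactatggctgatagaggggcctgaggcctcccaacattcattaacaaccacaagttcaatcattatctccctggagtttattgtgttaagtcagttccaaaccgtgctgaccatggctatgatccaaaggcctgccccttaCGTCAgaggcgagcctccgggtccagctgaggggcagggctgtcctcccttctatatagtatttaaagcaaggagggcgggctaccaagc

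ACGTG lay in the 250 bases of 16.6% of 32851 promoters and GCGTG in 28.2%. Counted by gene, in at least 1 promoter, 4998 of 27025 genes had ACGTG and 8338 had GCGTG. Of 21 genes of the hypoxia list with an entry, 15 had ACGTG and 17 had GCGTG, and of the 12 of these that rose in KO, 11 and 9 had them. TGACG lay in 17.8% of all promoters. Counted by gene, 5347 of 27025 genes (19.8%) had it, and 12 of 16 cAMP response genes with an entry. The full palindrome TGACGTCA, which holds TGACG, lay in 1.55% of promoters. By gene, 478 of 27025 (1.77%) had the palindrome, and 2 of the 16. These matches are descriptions of sequence and not of binding.

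The libraries were first compared with each other. Across the genes, the log2 ratios of KO libraries correlated between 0.987 and 0.992, those of WT libraries between 0.96 and 0.985, and those of a WT with a KO library between 0.93 and 0.971. WT replicate 2 stood apart from the other WT libraries, with correlations to them between 0.96 and 0.965, and it gave the lowest values between genotypes. The 4 KO libraries lay on 1 slide and the 4 WT libraries on 4 other slides, and the scanner software had different versions, so a difference of genotype and one of slides cannot be told apart. The reference channel gives a measure of that set: the same reference RNA differed between KO and WT arrays for 7567 genes (43.8%), 94 of these by 2-fold or more. Of the 4680 genes called between KO and WT below, 2366 also differed in the reference channel. Between 26095 and 30460 probes were well above background in Cy5. The hepatocyte transcript Alb read between 4.77 and 5.48 in all 8 libraries and was 0.30 lower in KO (limma, adjusted p = 0.262), and the mean of 44 transcripts for proteins that hepatocytes secrete read between 5.74 and 6.0.

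Gcgr, which encodes the receptor, read between 4.87 and 5.74 in the 4 WT libraries and between -0.01 and 0.19 in the 4 KO libraries. KO was 35.8-fold lower, with the same direction in Cy5 alone (-5.07) and in the log ratio of the scanner software (-5.79). All 8 libraries thus matched their labels in this gene.

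**Figure D1:**
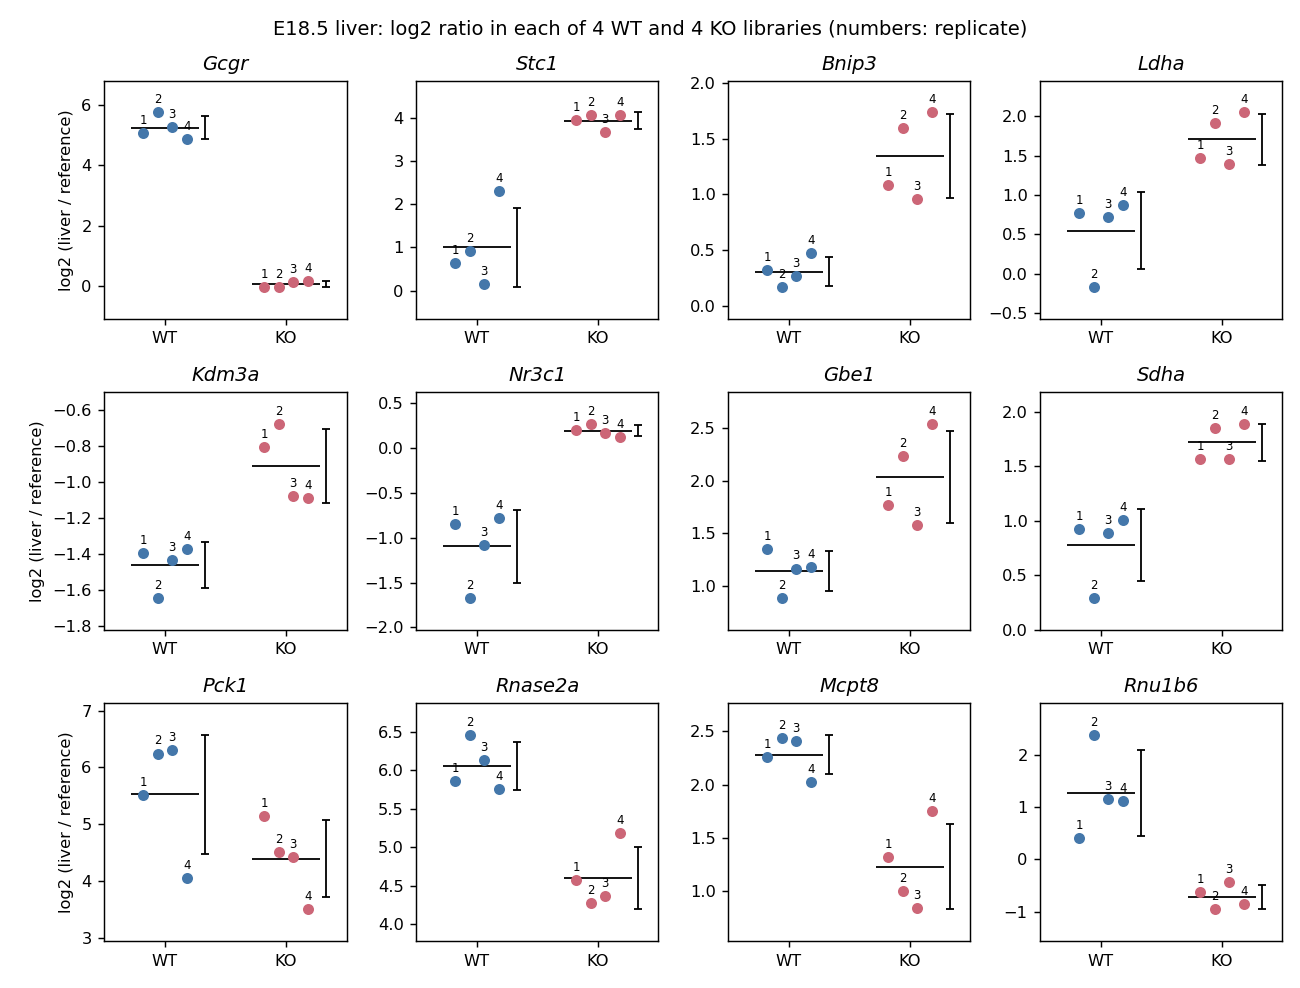
Log2 ratio of liver over reference (vertical axis) for 12 genes in each E18.5 library; points are libraries, numbered by replicate, bars are group means and whiskers show the SD (n = 4). WT and KO values do not overlap except for Pck1, and WT replicate 2 is the lowest WT library for Bnip3, Ldha, Kdm3a, Nr3c1, Gbe1 and Sdha and the highest for Gcgr, Rnase2a, Mcpt8 and Rnu1b6.

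Of the 17266 genes, 4680 (27.1%) differed between KO and WT at an adjusted p of 0.05 in limma, of which 2716 (15.7%) were higher and 1964 (11.4%) lower in KO. Most differences were small on this scale: 198 genes (1.15%) differed by 2-fold or more, 138 of them higher. The number at 2-fold or more was 1106 by the scanner software's ratio and 321 in Cy5 alone, so it depended on the scaling. WT and KO values did not overlap for 32.1% of genes. The balance between higher and lower depended on the scaling, because higher genes made up 58% of the calls here, 52.8% when Cy5 was read without the reference (14.9% of genes higher, 13.3% lower) and 40.6% with the log ratio of the scanner software (12.3% higher, 18% lower), whose median over all genes was -0.058 against 0.020 here. With the background fitted on all spots 15.5% of genes were higher and 8.47% lower. Without WT replicate 2 these shares were 12.3% and 9.32%. Of the 4680 genes, 377 had the opposite sign in Cy5 alone and 73 in the scanner software's ratio. The median change and both shares are the background against which each gene group is given. At an unadjusted p under 0.05 in limma 6607 of the 17266 genes differed in either direction, which is the background for the unadjusted counts.

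Genes that respond to hypoxia stood highest in KO among the groups examined. Of 24 tested, 14 rose and 0 fell, with a median of 0.54. At an unadjusted p under 0.05 in limma 16 rose and 0 fell, where 6607 of all 17266 genes differed in either direction. In Cy5 alone 15 rose and 0 fell, and by the scanner software's ratio 12 rose and 0 fell. The mean of the list read -0.98, -0.96, -0.96 and -0.76 in the WT libraries and -0.42, -0.06, -0.54 and -0.11 in the KO libraries. Every KO library was above every WT library, and KO replicates 2 and 4 were higher than KO replicates 1 and 3.

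Bnip3, the mitophagy receptor, read 0.32, 0.17, 0.27 and 0.47 in WT and 1.09, 1.59, 0.96 and 1.73 in KO. It rose by 1.04 ± 0.18 (SE, n = 4 against 4, limma, adjusted p = 0.000239), and all 3 of its probes were called higher, by 0.63 to 1.04. The lowest KO library was above the highest WT library, and replicates 2 and 4 led the KO group again. Ldha, which turns pyruvate into lactate, read 0.77, -0.17, 0.72 and 0.88 in WT and 1.47, 1.92, 1.40 and 2.05 in KO. Its rise of 1.16 ± 0.22 (limma, adjusted p = 0.000497) was 0.40 in Cy5 alone, where the reference channel had fallen by 0.75 on the KO arrays, and 1 of its 3 probes was called. Here too the groups did not overlap, and WT replicate 2 lay below the other WT libraries.

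Kdm3a, a histone demethylase, read -1.39, -1.65, -1.43 and -1.37 in WT and -0.80, -0.67, -1.08 and -1.09 in KO, a rise of 0.55 ± 0.09 (limma, adjusted p = 0.000204) with no change of the reference channel. The groups did not overlap, although the KO libraries differed among themselves by more than the WT libraries. Egln1, the prolyl hydroxylase, rose by 0.59 ± 0.10 (limma, adjusted p = 0.000292), but by 0.17 in Cy5 alone, which did not pass the threshold there. Aldoa, a glycolytic aldolase of the list, read between -1.92 and -1.56 in WT and between -1.54 and -0.71 in KO. Stc1, also of the hypoxia list, had the largest change after Gcgr of all genes tested, and it encodes the secreted hormone stanniocalcin. It read 0.64, 0.91, 0.15 and 2.30 in WT and between 3.66 and 4.07 in KO, so that WT replicate 4 was closer to the KO group than the other WT libraries were.

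Pfkfb3, whose product makes the activator of phosphofructokinase, read 0.81, 0.71, 0.76 and 1.11 in WT and 2.01, 2.16, 1.81 and 2.03 in KO, a rise of 1.15 ± 0.27 (limma, adjusted p = 0.00299) to which its other probe gave 0.13. Slc2a1, which encodes the glucose transporter GLUT1, rose by 0.91 ± 0.22 (limma, adjusted p = 0.00458), with WT replicate 4 at -0.07 inside the KO range of -0.26 to 0.27. Pfkfb3 and Slc2a1 were chosen after their values were seen. The erythroid marker list, which includes the globins, had 5 of its 35 genes higher and 0 lower (9 and 0 with the background fitted on all spots, 3 and 2 by the scanner software's ratio). Its median was 0.03 and its mean ranged from 3.74 to 3.99 in WT and from 3.97 to 4.10 in KO. Its part in the hypoxia list was not tested.

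The Y-linked transcript Ddx3y read 1.25 in WT replicate 1 and 1.36 and 1.22 in KO replicates 2 and 4, against between -2.84 and -2.28 in the other 5 libraries, and the labels give no sex. The KO libraries high in Ddx3y are the same ones that were higher in the hypoxia list. WT replicate 1 read -0.98 in that list, close to WT replicates 2 and 3 (-0.96 and -0.96). The part of the difference in Ddx3y in the list was not tested. Without these 3 libraries, a choice made after seeing the data, 2137 genes were called (7.54% of all genes higher and 4.84% lower), and 7 hypoxia genes rose and 0 fell.

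Receptors for hormones other than glucagon followed. Of 24 tested, 10 rose and 0 fell, and their median was 0.45, with 12 higher and 1 lower at an unadjusted p under 0.05 in limma. The count fell to 7 higher and 2 lower in Cy5 alone and to 6 higher and 3 lower by the scanner software's ratio, so falls were seen under these scalings and not under the main one. The mean of the list read 1.2, 0.93, 1.16 and 1.21 in WT and 1.45, 1.52, 1.56 and 1.47 in KO, without overlap.

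Nr3c1, which encodes the glucocorticoid receptor, read -0.85, -1.68, -1.08 and -0.78 in WT and 0.20, 0.27, 0.17 and 0.13 in KO. It rose by 1.29 ± 0.17 (limma, adjusted p = 2.25e-05), 2.44-fold, and both of its probes were called. The 4 KO libraries lay close together, well above the WT libraries. Gipr, the receptor for the gut hormone GIP and a relative of the glucagon receptor, read -0.61, -0.42, -0.51 and -0.10 in WT and 0.29, 0.67, 0.13 and 1.60 in KO. Its groups did not overlap, but KO replicate 4 was far above the others. Igf2r, which clears IGF2 from the cell surface, rose by 0.93 with 1 KO library inside the WT range.

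Among 25 genes of insulin and IGF signalling, 9 rose and 2 fell, with a median of 0.27, but in Cy5 alone 6 rose and 5 fell. Akt2, the kinase through which insulin acts on the liver, read -0.40, -0.42, -0.23 and -0.26 in WT and 0.18, 0.24, 0.18 and 0.22 in KO, and it rose by 0.53 ± 0.07 (limma, adjusted p = 2.26e-05). Foxo1, the transcription factor that this kinase holds in the cytoplasm, rose by 0.69 ± 0.17 (limma, adjusted p = 0.00491), the same in both of its probes (0.66 and 0.69). Its WT replicate 2 lay lowest at -0.74, and its other WT libraries between 0.07 and 0.28 were still below the KO range of 0.47 to 0.91. Igf2, the fetal growth factor, read 3.80, 2.97, 3.57 and 3.63 in WT and 2.94, 2.82, 2.92 and 2.65 in KO and fell by 0.66 on the log2 scale (limma, adjusted p = 0.0104), a call that was lost with the background fitted on all spots (-0.30, adjusted p = 0.528). Igfbp1, a binding protein for IGFs made by the fetal liver, changed by 0.80 in the ratio and by -0.40 in Cy5 alone, and so has no settled direction.

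Genes of the pathway by which glucagon itself acts held a larger share of rises and a smaller share of falls than all genes. Of 44 genes of glucagon receptor signalling 11 rose (25%, against 15.7% of all genes) and 1, Gcgr, fell (2.27%, against 11.4%). The other 32 were not called, and the median was 0.14. In Cy5 alone and by the scanner software's ratio 9 rose and 3 fell, with medians of 0.04 and 0.13. Pde3b, the phosphodiesterase that breaks down cAMP in response to insulin, read 1.56, 1.22, 1.59 and 1.84 in WT and 2.42, 2.75, 2.23 and 2.72 in KO. It rose by 0.98 ± 0.16 (limma, adjusted p = 0.000147), and the groups were apart. Crtc3, a coactivator of CREB, rose by 0.47 ± 0.09 and Rapgef4, a cAMP-activated exchange factor for Rap proteins, by 0.71 ± 0.14. Gnai2, a subunit of the inhibitory G protein, was 0.73 higher in the ratio and -0.32 in Cy5 alone, with the reference channel at -0.96, so its direction depended on the reference.

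Of 19 target genes of cAMP, 2 rose, 2 fell and 15 did not pass the threshold, shares close to or below those of all genes, and the median was 0.07. Sik1, a kinase that restrains CREB activity, read 1.47, 1.23, 1.60 and 1.22 in WT and 2.30, 2.46, 2.26 and 2.36 in KO, above every WT library. Pck1 and G6pc, which encode the first and the last enzyme of the gluconeogenic path from oxaloacetate to glucose, were the pair that fell. Pck1 read 5.51, 6.25, 6.30 and 4.04 in WT and 5.14, 4.51, 4.42 and 3.50 in KO, and it fell by 1.13 on the log2 scale (SE 0.39, limma, adjusted p = 0.0331). WT replicate 4 lay within the KO range, the call was lost in 6 of the 8 fits that left out 1 library, and with the slide as a random block the adjusted p was 0.0511. Its change was -0.52 by the scanner software's ratio (adjusted p = 0.209) and -0.67 with the background fitted on all spots (adjusted p = 0.43). G6pc read between 4.56 and 4.89 in WT and between 3.86 and 4.32 in KO, without overlap (change of -0.60, limma, adjusted p = 0.0375), and its call was lost in 5 of those 8 fits, in Cy5 alone and with the background fitted on all spots. Ppargc1a, a coactivator of gluconeogenic genes, was 1.04 higher in the ratio and -0.34 in Cy5 alone.

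Most lists of energy metabolism held a larger share of genes that rose than the 15.7% of all genes. Of 18 genes of gluconeogenesis 6 rose and 3 fell (median 0.22), and of 36 genes of glycolysis 13 rose and 1 fell (median 0.15). Of 25 genes of the citrate cycle 10 rose and 1 fell (median 0.30), and in Cy5 alone 10 rose and 2 fell. Of 22 genes of glycogen metabolism 6 rose and 1 fell (median 0.17), and of 30 genes of fatty acid oxidation and ketogenesis 10 rose and 2 fell (median 0.11). The scanner software's ratio gave 6 higher and 4 lower for fatty acid oxidation and ketogenesis (median -0.005) and 9 higher and 3 lower for glycolysis, and Cy5 alone gave 3 higher and 1 lower for gluconeogenesis. Among 40 genes of oxidative phosphorylation 6 rose and 5 fell, with a median of 0.04, which is near the background, against 6 and 8 by the scanner software's ratio. The lists of gluconeogenesis, glycolysis and hypoxia share members.

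Gbe1, the branching enzyme of glycogen synthesis, read 1.35, 0.88, 1.17 and 1.18 in WT and 1.77, 2.24, 1.58 and 2.54 in KO, 1.85-fold higher. The groups did not overlap, and KO replicates 2 and 4 were the higher KO libraries. Gaa, which breaks glycogen down in lysosomes, rose by 0.75 and Phkg2, a subunit of phosphorylase kinase, fell by 0.26 on the log2 scale. The calls of these latter genes were lost in 3 and 6 of the fits without 1 library, and the second probe of Gaa gave 0.18. The mean of the glycogen list ranged from 1.22 to 1.48 in WT and from 1.66 to 1.74 in KO.

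Sdha, the catalytic subunit of succinate dehydrogenase, read 0.93, 0.29, 0.88 and 1.01 in WT and 1.57, 1.85, 1.57 and 1.88 in KO. It rose by 0.94 ± 0.13 (limma, adjusted p = 4.14e-05), with WT replicate 2 lowest and no overlap. Ogdh, a subunit of the 2-oxoglutarate dehydrogenase complex, rose by 0.65 ± 0.14 (limma, adjusted p = 0.00216), from at most 0.54 in WT to at least 0.82 in KO, although 1 of its 3 probes gave -0.02. Got1 and Mdh1, which carry out the cytosolic steps of the malate-aspartate shuttle, rose by 1.05 ± 0.29 and 0.71 ± 0.13. Got1 read 0.21, -0.32, -0.02 and 0.02 in WT and 0.75, 1.36, 0.58 and 1.38 in KO, where replicates 2 and 4 were again the higher KO libraries. Pcx, pyruvate carboxylase, was 0.40 higher in the ratio and -0.41 in Cy5 alone.

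Gpi1, which interconverts glucose and fructose phosphates, read -0.64, -1.19, -0.43 and -0.53 in WT and -0.10, 0.52, -0.25 and 0.58 in KO, and its 3 probes were called with changes between 0.86 and 0.89. Hkdc1, a hexokinase family gene, rose by 1.65, but the scanner software's ratio gave -0.19. Acadvl, the first enzyme of mitochondrial oxidation of long-chain fatty acids, read 1.98, 1.38, 2.0 and 1.98 in WT and between 2.40 and 2.64 in KO. Ppara, the nuclear receptor that switches on such enzymes, rose by 0.63 ± 0.14 (limma, adjusted p = 0.002), but 1 of its 3 probes gave -0.38, and the call was lost in Cy5 alone and by the scanner software's ratio.

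Transcripts of eosinophils and mast cells, granulocytes that mature in part in the fetal liver, were lower in KO. Of 21 tested, 0 rose and 9 fell, with a median of -0.40. At an unadjusted p under 0.05 in limma 0 rose and 10 fell, and in Cy5 alone 12 fell. With the background fitted on all spots only 3 of the 21 fell, where 8.47% of all genes did. Their mean read 2.35, 2.37, 2.60 and 2.28 in WT and 1.83, 1.64, 1.74 and 2.18 in KO. All KO libraries were below all WT libraries, and KO replicate 4 came nearest to WT. Markers of neutrophils and monocytes had 1 of 25 higher and 3 lower (mean 4.04 to 4.31 in WT and 3.96 to 4.11 in KO), and markers of macrophages 1 of 18 higher and 0 lower.

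Rnase2a, a ribonuclease of eosinophil granules, read 5.87, 6.46, 6.13 and 5.75 in WT and 4.57, 4.27, 4.37 and 5.18 in KO, a change of -1.45 ± 0.19 (limma, adjusted p = 1.83e-05). Its relative Ear1 read between 5.67 and 5.94 in WT and 4.10, 4.05, 4.2 and 5.07 in KO. Ear6, of the same family, was 2.93-fold lower. These ribonuclease genes are near copies of each other, so a probe may read more than 1 of them and the separate values are uncertain. Mcpt8, a protease of basophils that has no such copy in this list, read 2.26, 2.44, 2.41 and 2.03 in WT and 1.32, 1.0, 0.83 and 1.75 in KO, and fell by 1.06 on the log2 scale (limma, adjusted p = 0.000898). Its change was -0.76 by the scanner software's ratio (adjusted p = 0.218) and -0.73 with the background fitted on all spots (adjusted p = 0.119), so the call was lost in both. With the latter background the calls of Ear1 (-0.92, adjusted p = 0.124), Prg3 (adjusted p = 0.154) and Epx (adjusted p = 0.305) were lost too. The granule protein genes Prg3 and Epx, chosen after their values were seen, fell by 1.19 and 0.97 on the log2 scale, with KO replicate 4 at 2.56 and 2.20 inside the WT range of each. KO replicate 4 was the highest KO library in all 6 genes.

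Among other cells of the liver, 10 of 31 genes of stellate cells and fibroblasts rose and 1 fell (median 0.26), with means between -1.02 and -0.63 in WT and between -0.44 and -0.34 in KO. In Cy5 alone 6 rose and 5 fell, and without WT replicate 2, the lowest library, 6 rose. Fn1, the matrix and plasma protein fibronectin, which is not on the list since hepatocytes make it too, read 0.33, -1.17, 0.45 and 1.02 in WT and 1.44, 2.0, 1.70 and 1.55 in KO. Comp, a matrix protein of the list, read 2.64, 1.12, 2.47 and 2.25 in WT and 3.42, 3.90, 4.0 and 3.32 in KO. In both genes WT replicate 2 was the lowest library, and the groups did not overlap, which was required of genes named for the largest changes. Timp2, an inhibitor of matrix proteases, was 1.41 higher in the ratio and -0.002 in Cy5 alone.

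Of 26 endothelial genes 8 rose and 1 fell (median 0.14), but in Cy5 alone 3 rose and 3 fell. Without WT replicate 2 only 2 of the 26 rose, where 12.3% of all genes did. Flt1 and Kdr, the receptors for the growth factor VEGF, moved in opposite directions. Flt1 read 0.11, -0.27, 0.66 and 0.29 in WT and 1.07, 1.43, 0.97 and 1.32 in KO, and rose by 1.0 ± 0.17 (limma, adjusted p = 0.000189). Kdr read 0.82, 1.32, 0.87 and 1.11 in WT and 0.21, 0.18, 0.40 and 0.20 in KO, and fell by 0.78 on the log2 scale (limma, adjusted p = 0.000552), although its other probe gave 0.08. Neither gene's groups overlapped.

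Small structured RNAs had the lowest median of any group. Of 27 listed, 9 were tested, of which 8 fell and 0 rose, with a median of -1.16, and at an unadjusted p under 0.05 in limma all 9 fell. Their mean read 0.44, 1.47, 0.66 and 0.65 in WT and -0.36, -0.41, -0.16 and -0.29 in KO. Rnu1b6, a gene for the U1 RNA of the spliceosome, read 0.40, 2.38, 1.15 and 1.12 in WT and -0.63, -0.96, -0.44 and -0.85 in KO. Rpph1, the RNA of ribonuclease P, which trims transfer RNAs, read 1.58, 2.67, 1.41 and 1.80 in WT and between 0.08 and 0.45 in KO. WT replicate 2 was the highest library for both, and no KO library reached any WT library, which was required of genes named for the largest changes. Terc, the RNA of telomerase, fell by 0.44 on the log2 scale in the ratio and by 0.15 in Cy5 alone. Such RNAs mostly lack poly(A) tails, and how far the isolation and labelling of RNA moved with genotype was not tested.

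Of 52 genes of cytosolic ribosomal proteins 3 rose and 18 fell, with a median of -0.08, so that most changes were slight. By the scanner software's ratio 7 rose and 11 fell, with a median of 0.008, and with the background fitted on all spots 9 fell. Rps2, a protein of the small ribosomal subunit, read between 1.11 and 1.36 in WT and between 0.56 and 0.61 in KO, and fell by 0.61 on the log2 scale (limma, adjusted p = 2.7e-06). Many ribosomal protein genes have processed copies in the genome, and their probes may read them too. Of 42 genes of cell division 4 rose and 12 fell (median -0.08). Ube2c, a ubiquitin-conjugating enzyme of mitosis, read between 0.18 and 0.59 in WT and between -0.22 and -0.11 in KO, but its call was lost in Cy5 alone (-0.17, adjusted p = 0.288). Tyms, thymidylate synthase, fell by 0.45 on the log2 scale, whereas Cdc6, which loads the replicative helicase, rose by 0.52 with its other probe at -0.14. The mean of the division list ranged from -0.22 to 0.21 in WT and from -0.19 to -0.01 in KO, so the groups overlapped.

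Markers of the fetal state of the liver were called in both directions, with shares not far from those of all genes. Of 22 tested, 3 rose (13.6%, against 15.7% of all genes) and 4 fell (18.2%, against 11.4%). With the background fitted on all spots 0 fell. The median was 0.10, with means of 2.40 to 2.52 in WT and 2.47 to 2.52 in KO. Afp, the fetal serum protein, read between 10.04 and 10.39 in WT and between 9.62 and 9.90 in KO, but the change was 0.003 in Cy5 alone. Gpc3, a fetal cell-surface proteoglycan, was -0.57 in the ratio and 0.63 in Cy5 alone, with the reference channel at 1.16. Hmga2, a chromatin protein of growing tissue, rose by 0.66 ± 0.09 (limma, adjusted p = 3.3e-05) and was called in both of its probes, but its change in Cy5 alone was 0.12 (adjusted p = 0.407). Of 24 genes of heat shock and the unfolded protein response 7 rose and 2 fell (median 0.22). Among them Hspd1, the mitochondrial chaperonin, read between 0.34 and 0.51 in WT and between 0.85 and 1.01 in KO, and Hspa5, the chaperone of the endoplasmic reticulum, between -1.16 and 0.33 in WT and between 0.30 and 0.75 in KO.

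Most of the other genes with the largest changes belong to no group described above. Cbfa2t3, whose product represses transcription in blood progenitors, read 0.94, 0.69, 0.58 and 1.29 in WT and 3.58, 3.56, 3.35 and 3.63 in KO, but its 3 probes ranged from -0.10 to 2.66. The same held for Rnf150, a RING finger gene (1.99 in the brightest probe, -0.11 in the lowest), for the membrane protein gene Ptchd1 (1.98 and 0.03), and for Cntn4, a neuronal adhesion gene (1.59 and -0.10), whose call was also lost by the scanner software's ratio (adjusted p = 0.0744). Kcnn3, a calcium-activated potassium channel, rose by 1.53 and in its other probe by 0.13. Dars, aspartyl-tRNA synthetase, read 1.41, 0.13, 0.82 and 0.78 in WT and 2.36, 2.74, 2.33 and 2.63 in KO. A2m, a protease inhibitor of plasma, rose by 1.5 ± 0.47, a call that was lost in 2 of the 8 fits without 1 library and by the scanner software's ratio (0.52, adjusted p = 0.565), and the olfactory receptor gene Olfr1370 by 1.85 ± 0.46.

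Among the falls, Ccny, a cyclin of the plasma membrane, read 0.99, 1.45, 0.90 and 0.64 in WT and -0.73, -1.03, -0.89 and -0.70 in KO. Lsm14b, an RNA-binding protein gene, read between 0.41 and 0.61 in WT and between -1.25 and -1.16 in KO, and its other probe fell too (-0.27). Krt23, a keratin gene, read 4.79, 5.51, 5.12 and 4.02 in WT and 3.84, 3.13, 3.38 and 2.90 in KO, a call that was lost with the background fitted on all spots (limma, adjusted p = 0.225). The oocyte homeobox gene Obox1 was 5.92-fold lower and the adhesion gene Ceacam2 3.96-fold lower, but the second probe of each moved by -0.09 and 0.10. By the scanner software's ratio Obox1 changed by -0.93 (limma, adjusted p = 0.168), so that the call was lost. Olfr704, an olfactory receptor gene, fell by 1.51 on the log2 scale. Rprl2 and Rnu2-10, for RNAs of ribonuclease P and of the U2 particle, fell by 1.65 and 1.56. They are small structured RNAs, a group described above.

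**Figure D2:**
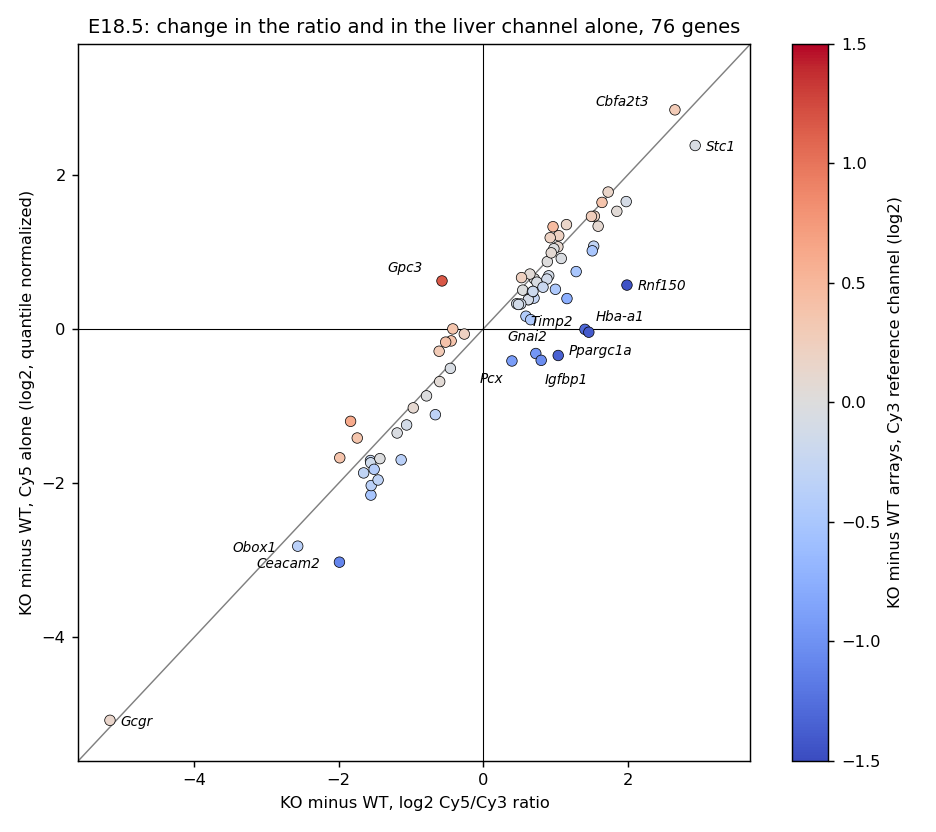
Change between KO and WT at E18.5 of the 76 genes named in the text, as the log2 Cy5/Cy3 ratio (horizontal axis) and as the liver channel alone (vertical axis, log2), coloured by the change of the Cy3 reference channel; the line marks equal change. Rnf150, Ppargc1a, Hba-a1 and Timp2 lie near or below 0 on the vertical axis or far from the line, where the reference channel was low on KO arrays, and Gpc3 lies on the opposite side.

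The reference channel moved with some of these values. Hba-a1, an alpha-globin gene of erythroid cells, was 1.46 higher in the ratio and -0.04 in Cy5 alone, where the reference read -1.40. Rnf150 was 0.57 higher in Cy5 alone, against 1.99 in the ratio, with the reference at -1.44. Of the 76 genes named, 58 kept their direction and their call in Cy5 alone, 10 kept the direction without the call and 8 had the opposite sign. The genes named for the largest rises and falls had been required to keep their sign in Cy5 alone. These counts are therefore no test of agreement. Of the hypoxia genes named, Bnip3, Kdm3a, Stc1 and Pfkfb3 had reference changes between -0.05 and 0.16, while Ldha and Egln1 had -0.75 and -0.43.

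The difference between KO and WT was then compared with that at the later ages, where other libraries were used. The KO libraries of each age lay on slides that held no other age, whereas WT libraries of different ages shared slides. A difference between ages in the KO minus WT change and one between KO slides therefore cannot be told apart. It differed from P2.5 for 3473 genes (20.1%), 2127 of them (12.3%) more positive at E18.5, and from P7.5 for 264 genes (1.53%), 163 of them (0.944%) more positive at E18.5. Replicate 2 of the group labelled P7.5 KO carried Gcgr at 5.02, against its label, while the other P7.5 KO libraries read between -0.01 and 0.26. Without this library, 704 genes (4.08%) differed from P7.5, 433 of them (2.51%) more positive at E18.5. At the later ages the hypoxia list had 4 genes higher and 0 lower at P2.5 (all genes: 11.8% higher, 12.3% lower) and 5 higher and 2 lower at P7.5 (all genes: 17.2% higher, 18.3% lower). Without the P7.5 library that carried Gcgr, 6 were higher and 3 lower at P7.5 (all genes: 18.4% higher, 19.2% lower).

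For 8 of the 24 hypoxia genes the difference was more positive at E18.5 than at P2.5, and for 0 the reverse, and for 2 it was more positive than at P7.5, or 7 when the P7.5 library that carried Gcgr was left out. Bnip3 changed by 0.25 at P2.5, against 1.04 at E18.5, which differed from each other (limma interaction of 0.78, adjusted p = 0.0314). In the receptor list 10 of 24 differences were more positive than at P2.5 and 0 differed from P7.5, or 2 when the P7.5 library that carried Gcgr was left out. Nr3c1 changed by 0.13 at P2.5 and by 1.42 at P7.5, or by 1.535 at P7.5 without that library. Its rise of 1.29 at E18.5 differed from the change at P2.5 (limma interaction, adjusted p = 0.00297). In the citrate cycle 11 of 25 were more positive than at P2.5, and in the glycogen list 8 of 22, among them Gbe1, which changed by -0.03 at P2.5 (limma interaction of 0.92, adjusted p = 0.0115).

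The eosinophil and mast cell list had opposite directions before and after birth: 0 genes were higher and 9 lower at E18.5, and 7 were higher and 0 lower at P2.5, with 9 of 21 interactions passing, all more negative at E18.5. Rnase2a changed by -1.45 at E18.5 and by 0.73 at P2.5 (limma interaction of -2.18, adjusted p = 8.46e-05). Ear6 changed by -1.55 and 2.07. Fn1 had the reverse pattern, at 1.51 at E18.5 and -1.61 at P2.5 (limma interaction of 3.12, adjusted p = 0.000209). Small structured RNAs had 0 of 9 lower at P2.5 and 9 lower at P7.5, or 8 without the P7.5 library that carried Gcgr. Of the 9, 5 differed between E18.5 and P2.5.

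**Figure D3:**
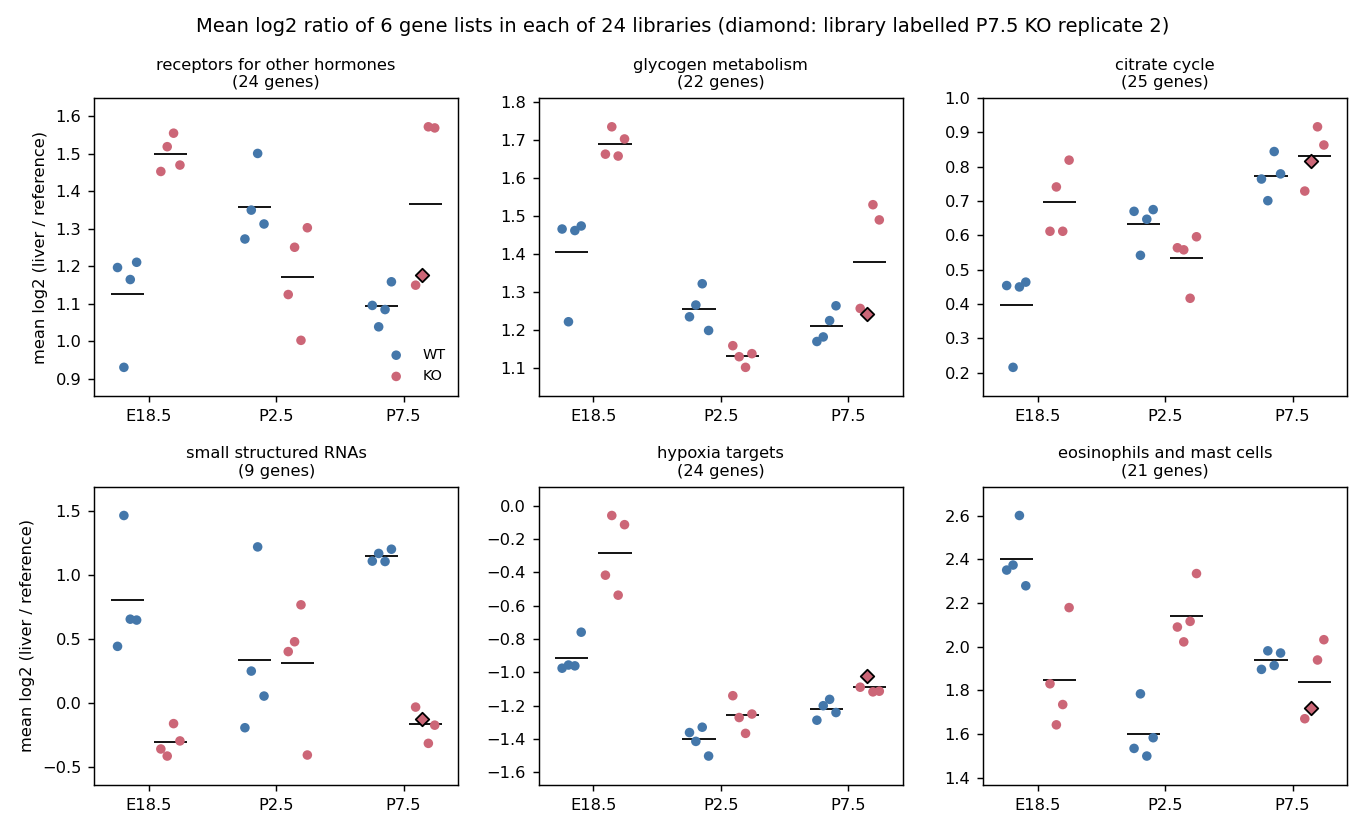
Mean log2 ratio of 6 gene lists (vertical axis) in each of the 24 libraries at the 3 ages (horizontal axis); points are libraries, bars are group means, and the diamond is replicate 2 of the group labelled P7.5 KO, which carried Gcgr. At E18.5 the 4 KO and 4 WT points of each list do not overlap, and the eosinophil and mast cell list is lower in KO at E18.5 and higher in KO at P2.5.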

How the data were processed

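Each scanner file gives, per the file headers, the median intensity of the pixels of a spot and of the background around it in Cy5 and Cy3, not normalized. WT arrays were read by version 11.5.1.1 of Feature Extraction and KO arrays by version 11.0.1.1, per the file headers (version 11 per the submitters' processing notes). A log10 ratio (Cy5 to Cy3) in the same files was, per the file headers, corrected by Feature Extraction for background and dye. The series matrix deposited by the authors has log2 values whose scale and direction are not stated and that matched the ratio computed here closely. The design had named mean signals, and medians were used in their place. There were 0 columns from other samples, and the dyes were not swapped. Livers of later ages in the series description were not analysed here.

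The ratios were made in R 4.3.3 with limma 3.58.1 (and version 1.17.8 of the data.table package), by normexp background correction (offset of 50) and loess within arrays, with no normalization between arrays. Spots marked non-uniform or as outliers were left out. Of 39429 probes 26581 carried 1 gene symbol and 0 several, and the brightest probe in Cy5 stood for each of 20144 genes. Genes had to be well above background on 4 or more of the 24 arrays. One limma model with 6 group means (eBayes) gave every p-value, adjusted by Benjamini-Hochberg over the 17266 genes, with a threshold of 0.05; interactions are differences between ages of the KO minus WT change. A fold change is on the scale of the log2 ratio.

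Named genes are Gcgr, the 12 largest rises and 12 largest falls that were called, did not overlap and kept their sign in Cy5 alone, in the Feature Extraction ratio and in the matrix, and up to 6 members of each described list with the lowest adjusted p. A few genes taken by this rule are not reported here. The genes and lists were chosen with earlier results of these data known. The main fit of KO against WT at E18.5 was tested on simulated data, and the interactions and the alternative fits were not. Alternatives were other background settings, the Feature Extraction ratio, the matrix, Cy5 alone with quantile normalization, other filters, the mean of all probes, array weights, the E18.5 arrays alone, a block for slide or replicate, and fits without single libraries. The precision is limited by the number of arrays and, for dim probes, by background. Sequences came from promoters RefSeq annotates on GRCm38.p6.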

Additional observations from a re-analysis of the deposited data

Results flagged for a closer look

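The change between KO and WT at E18.5 differed from that at another age by the limma interaction for 57 of the 152 values examined in the 76 genes named. Of all genes tested 20.1% differed from P2.5 and 1.53% from P7.5, and the genes named were chosen for their change at E18.5, which enters these values. All values here are the log2 change at E18.5 less that at the other age. Those against P2.5 that were positive among genes of oxygen response and sugar metabolism were 0.58 for Kdm3a, 0.78 for Bnip3, 1.13 for Ldha, 0.78 for Aldoa, 1.23 for Pfkfb3, 0.91 for Gpi1, 1.41 for Hkdc1, 0.92 for Gbe1, 1.21 for Gaa and 0.72 for Pcx. In mitochondrial and lipid metabolism they were 0.88 for Mdh1, 0.97 for Sdha, 0.97 for Ogdh, 1.05 for Acadvl and 0.86 for Ppara. In hormone signalling they were 1.22 for Pde3b, 0.44 for Crtc3, 1.16 for Nr3c1, 1.48 for Igf2r, 0.62 for Akt2, 1.06 for Foxo1 and 1.80 for Igfbp1.

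Further positive differences from P2.5 were 1.66 for Cbfa2t3, 1.66 for Ptchd1, 2.20 for Dars, 1.87 for Cntn4, 1.55 for Comp, 3.12 for Fn1 and 2.79 for A2m. They were 1.18 for Ceacam2, whose fall was smaller at E18.5 than at P2.5, 0.67 for Afp, 0.89 for Timp2, 2.03 for Hba-a1, 1.47 for Hspa5, 0.82 for Hspd1 and 1.11 for Flt1. The negative ones among eosinophil and mast cell genes were -2.18 for Rnase2a, -2.33 for Ear1, -3.62 for Ear6, -1.21 for Mcpt8, -2.93 for Prg3 and -2.89 for Epx. The other negative ones were -3.61 for Obox1, -2.06 for Rnu1b6, -2.54 for Rnu2-10, -1.94 for Olfr704, -0.40 for Terc, -0.41 for Tyms and -0.32 for Rps2.

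Against P7.5 the differences were 1.46 for Comp, 1.78 for Kcnn3, -2.34 for Obox1, 0.85 for Mdh1, 1.75 for Got1, 1.53 for Hkdc1, 1.22 for Igfbp1 and -1.47 for Timp2. These include the P7.5 KO library that carried Gcgr. Without it the same genes passed, and so did Aldoa (0.735), Pfkfb3 (1.56), Slc2a1 (1.14), Ear6 (-1.68) and Epx (-1.67).

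In 9 of the 152 groups of 4 libraries a library lay far from the other 3, which by chance is seen in about 1 group of 20. WT replicate 2 did so for Rprl2 (2.87), Ldha (-0.17), Gnai2 (-0.69), Phkg2 (0.79) and Acadvl (1.38). KO replicate 4 did so for Hmga2 (-3.57), Ear1 (5.07) and Epx (2.20) and KO replicate 3 for Kdr (0.40).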

How the results depend on the processing

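Of 4680 genes called at E18.5, 3945 were called with slide as a random block (correlation within slides 0.08), all shared with the 4680. The E18.5 KO libraries lay on 1 slide and WT on others, so this block cannot separate an offset of that slide from genotype. The shared calls are therefore no test of such an offset. Fits that left out 1 library called between 3626 and 4743 genes. The log ratio of Feature Extraction called 3106 lower and 1106 by 2-fold or more, Cy5 alone 321 by 2-fold or more and the mean of all probes 130. Hypoxia genes called higher ranged from 11 to 16 of 24 without 1 library, with 0 lower. Without the 3 libraries high in Ddx3y 2137 genes were called, 1302 higher and 835 lower, and 7 hypoxia genes rose. The 264 differences from P7.5 became 171 with the log ratio of Feature Extraction, 120 with slide as a random block, 704 without the P7.5 KO library that carried Gcgr and between 110 and 509 without 1 E18.5 library. The 7567 differences of the reference channel became 4029 with slide as a random block. Signs turned in Cy5 alone for Gnai2 (-0.32), Ppargc1a (-0.34), Pcx (-0.41), Igfbp1 (-0.40), Afp (0.003), Gpc3 (0.63), Timp2 (-0.002) and Hba-a1 (-0.039), and with the log ratio of Feature Extraction for Hkdc1 (-0.19). With the background fitted on all spots 4137 genes were called, and of the 76 genes named 65 kept their call and 11 lost it, Pck1, G6pc, Igf2, Krt23 and Mcpt8 among them. The causes were not tested. Few arrays and dim probes limit these values.

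The replicate numbers of KO and WT libraries do not pair them, as their deviations correlated between -0.07 and 0.06. With the replicate block 4275 genes were called, 4073 of them shared, and 61 differed from P7.5; Afp alone of the 76 genes lost its call (adjusted p = 0.0525).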
